A study of Mus musculus with 4 samples.

Results

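Polyamine genes were followed across the cell types of a mouse brain tumor driven by human MYCN. The 9 genes were taken from a fixed list of names, Odc1, Amd1, Srm, Sms, Azin1, Oaz1, Oaz2, Sat1 and Smox, and all 9 were found among the 21861 features counted. Tumors of 4 mice had been dissociated and profiled by droplet-based 3′ single-cell RNA sequencing, mouse 4 (labelled female) and mouse 5 (labelled male) at an age of 43 days (P43) and mouse 6 (labelled male) and mouse 7 (labelled female) at 70 days (P70). All 4 carried the alleles hGFAP-cre, TP53Fl/Fl and lsl-MYCN, so no mouse without the transgene served as control, and normal cells were those of the tumor microenvironment (TME) in the same library. The hGFAP promoter drives Cre in neural precursor cells, where it deletes both floxed Trp53 alleles and switches on human MYCN together with firefly luciferase, and these transgene RNAs, counted together as the reporter, mark tumor cells. Against the labels, transcripts of 4 Y-linked genes reached 149 CPM (counts per 1000000 UMIs) in mouse 4 and 0.371 in mouse 5, both of P43, and 167 in mouse 6 and 0 in mouse 7. Labelled sex and Y transcripts thus disagreed in both P43 mice, while either reading gave 1 male and 1 female mouse at each age.

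Polyamines are small positively charged molecules that bind nucleic acids and that growing cells need for translation and division. Ornithine decarboxylase (Odc1) makes putrescine from ornithine, S-adenosylmethionine decarboxylase (Amd1) supplies aminopropyl groups, and spermidine synthase (Srm) and spermine synthase (Sms) add these groups stepwise. Antizymes (Oaz1, Oaz2) bind ornithine decarboxylase and send it to the proteasome, and antizyme inhibitor (Azin1) takes them away from it. Spermidine/spermine N1-acetyltransferase (Sat1) and spermine oxidase (Smox) return polyamines to earlier forms or mark them for export. Odc1 is a textbook target of MYC proteins, which bind DNA at E-boxes. Antizyme translation and acetyltransferase stability respond to polyamines after transcription, so RNA counts show neither enzyme activity nor polyamine content.

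In GRCm38, Odc1 lies on chr12:17544794-17551505 (plus strand), Amd1 on chr10:40287458-40302186 (minus strand), Srm on chr4:148591503-148594993 (plus strand) and Sms on chrX:157443855-157492287 (minus strand). Azin1 lies on chr15:38487427-38519266 (minus strand), Oaz1 on chr10:80826656-80829290 (plus strand), Oaz2 on chr9:65668001-65690300 (plus strand), Sat1 on chrX:155213132-155216449 (minus strand) and Smox on chr2:131491496-131525922 (plus strand). As examples of the entries found, the 250 bases before RefSeq transcription starts (GRCm38.p6) are printed for Odc1, for both starts of Sms and for Sat1. Capitals mark the E-box CACGTG and its variant CACGCG, each searched on both strands, where the variant reads CGCGTG on the other strand.

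Odc1, chr12:17544623-17544872, plus strand: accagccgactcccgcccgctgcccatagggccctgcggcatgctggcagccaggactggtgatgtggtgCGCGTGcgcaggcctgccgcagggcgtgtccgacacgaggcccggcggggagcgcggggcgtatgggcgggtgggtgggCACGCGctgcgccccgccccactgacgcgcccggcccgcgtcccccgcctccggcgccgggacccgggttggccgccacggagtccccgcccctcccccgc
Sms, chrX:157492288-157492537, minus strand: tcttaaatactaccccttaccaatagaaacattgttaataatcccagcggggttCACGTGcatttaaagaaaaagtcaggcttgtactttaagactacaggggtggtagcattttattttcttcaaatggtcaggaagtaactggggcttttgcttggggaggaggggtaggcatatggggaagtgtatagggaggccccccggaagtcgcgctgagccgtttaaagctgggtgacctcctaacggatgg
Sms, chrX:157491369-157491618, minus strand: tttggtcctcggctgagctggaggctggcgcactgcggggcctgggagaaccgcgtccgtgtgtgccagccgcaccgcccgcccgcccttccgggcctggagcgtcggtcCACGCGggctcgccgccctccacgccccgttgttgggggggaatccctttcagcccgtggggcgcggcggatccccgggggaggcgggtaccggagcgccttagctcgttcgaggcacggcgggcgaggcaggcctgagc
Sat1, chrX:155216450-155216699, minus strand: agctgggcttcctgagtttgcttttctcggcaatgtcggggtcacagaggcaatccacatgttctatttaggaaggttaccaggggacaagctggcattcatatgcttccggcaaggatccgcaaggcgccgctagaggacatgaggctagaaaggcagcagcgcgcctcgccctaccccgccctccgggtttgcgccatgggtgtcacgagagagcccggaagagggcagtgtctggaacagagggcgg

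Odc1 held the variant at 2 places, 180 and 101 bases before the start. The upstream Sms start had 1 CACGTG and the other Sms start 1 variant, whereas the Sat1 window had neither. Of the 8 entries for 7 members, 1 held CACGTG and 3 the variant, the third being Oaz1. The windows of Amd1, Oaz2 and Smox also held neither. A synthesis gene, Amd1, thus lacked both motifs, and an antizyme, Oaz1, held the variant. Among all 32851 promoter windows of this length, 6.02% held CACGTG and 7.62% the variant. Srm and Azin1 had no entry. Such matches describe letters in a window and not binding.

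Several members share sequence with other loci, which limits what 3′ counts can separate. Of the 31-base words in the last 500 bases of the Amd1 transcript, 98.7% also occurred in its copy Amd2, so Amd1 counts are uncertain throughout. Oaz1 shared 39.1% with its pseudogene, Odc1 26.0% with 10 other loci, Sat1 15.3% and Srm 4.68%, while Sms, Azin1, Oaz2 and Smox shared none.

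The libraries held 13106786 to 40621958 UMIs (unique molecular identifiers, each standing for 1 captured RNA molecule), and 10975 cells were kept, with median UMIs per cell from 1419 in mouse 4 to 10450 in mouse 7. The cells formed 20 clusters without use of the polyamine genes, and 9 clusters with at least 500 CPM of reporter counted as tumor. Classes were named from marker genes as oligodendrocyte-lineage-like (OL-like, 4166 cells), neuroblast-like (NB-like, 659) and astrocyte-like (AC-like, 272) tumor cells, endothelial cells (EC, 1249), mural cells of vessels (781), Myeloid cells (1082), dendritic cells (DC, 698), Lymphoid cells (605) and mature oligodendrocytes (MOL, 119). Reporter in OL-like cells was 876, 3186, 3281 and 1834 CPM in mice 4, 5, 6 and 7. In TME cells it was 38.2, 42.7, 35.1 and 284 CPM, so the TME of mouse 7 stood apart. Of the MOL, those of mouse 7 held 668 CPM of reporter against 7.56 and 26.5 CPM in mice 4 and 5. The 36 cells of mouse 4 in the NB-like class went against its name: the 11 NB-like markers summed to 88.0 CPM there, with a UMI for 1 of the 11, against 149 CPM in the OL-like cells of that mouse. The NB-like cells of mice 6 and 7 had 3468 and 3360 CPM. A further 573 cells lay in tumor clusters in mice where those cells stayed under the limit and were left out, and 12 barcodes occurred in more than 1 library. Levels are CPM of the UMIs summed over the cells of 1 class in 1 mouse, and are compared within a gene. Oligodendrocyte progenitors (143 cells), neutrophils (126) and 502 cells without a class name entered tests only in sums of all tumor or all TME cells. Fewer molecules per cell and fewer expressing cells cannot be told apart in these sums.

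Tumor cells had higher RNA levels of 3 polyamine synthesis genes than the TME cells of the same mice, and lower levels of Sat1 and Oaz2. Srm was 10.8-fold, Sms 4.29-fold and Odc1 4.28-fold higher in tumor cells, and Sat1 was 7.24-fold and Oaz2 3.19-fold lower. Odc1 stood at 393, 379, 311 and 321 CPM in the tumor cells of mice 4, 5, 6 and 7, and at 71.2, 65.3, 96.8 and 106 CPM in their TME cells. The lowest tumor value thus exceeded the highest TME value, with a log2 fold change of 2.10 ± 0.33 (SE, n = 4 mice, edgeR quasi-likelihood test with mouse as block, adjusted p = 0.0051). Srm, which makes spermidine, was at 400, 414, 370 and 400 CPM against 37.8, 27.3, 20.9 and 93.6 CPM (log2 fold change 3.43 ± 0.40, edgeR adjusted p = 0.0024). Sms, which makes spermine, was at 203, 169, 181 and 220 CPM against 41.5, 40.6, 34.0 and 75.9 CPM (2.10 ± 0.22, edgeR adjusted p = 0.0019). For both genes every tumor sum lay above every TME sum. The share of all genes without such overlap was not counted, so for these genes and for Odc1 it is a description only. The highest TME sum of both Srm and Sms was that of mouse 7, whose TME also held the most reporter. The TME of mouse 7 differed in makeup too: of its 470 cells, 115 were oligodendrocyte progenitors and 44 were MOL. These classes held 5 and 39 of 1015 cells in mouse 4, 22 and 35 of 1139 in mouse 5 and 1 and 1 of 2179 in mouse 6. The part of reporter and of makeup in these sums was not tested.

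Sat1, the acetyltransferase, showed the opposite order. Its level was 95.4, 19.1, 71.1 and 126 CPM in tumor cells and 252, 294, 1057 and 612 CPM in TME cells of mice 4 to 7 (log2 fold change -2.86 ± 0.59, edgeR adjusted p = 0.012). No tumor sum reached a TME sum, which is likewise a description only. Oaz2 was at 31.5, 18.9, 23.4 and 28.4 CPM against 139, 125, 48.6 and 51.9 CPM (-1.67 ± 0.31, edgeR adjusted p = 0.0087). Of the 9 members, all of which passed the filter on low counts, 3 were called higher and 2 lower in tumor cells. Among all 12331 genes tested, 22.8% were called higher, 24.5% lower and 47.3% in either direction, so the share of members called was near that of all genes. The median log2 fold change was -0.29 over the members and 0.03 over all genes.

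The remaining 4 members missed the threshold. Amd1 had a log2 fold change of 0.94 ± 0.31 (edgeR adjusted p = 0.051) and Smox one of -0.53 ± 0.17 (edgeR adjusted p = 0.051), and both passed under several other settings. Azin1 (-0.29 ± 0.19, edgeR adjusted p = 0.24) and Oaz1 (-0.30 ± 0.25, edgeR adjusted p = 0.35), which encodes the main antizyme, were not separated either. With tumor cells called one by one from their reporter UMIs, edgeR passed 0 of 9 members, with Odc1 at 1.31 (adjusted p = 0.060) and Srm at 2.04 (adjusted p = 0.075), and 897 genes were then lower and 58 higher in tumor cells.

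**Figure D1:**
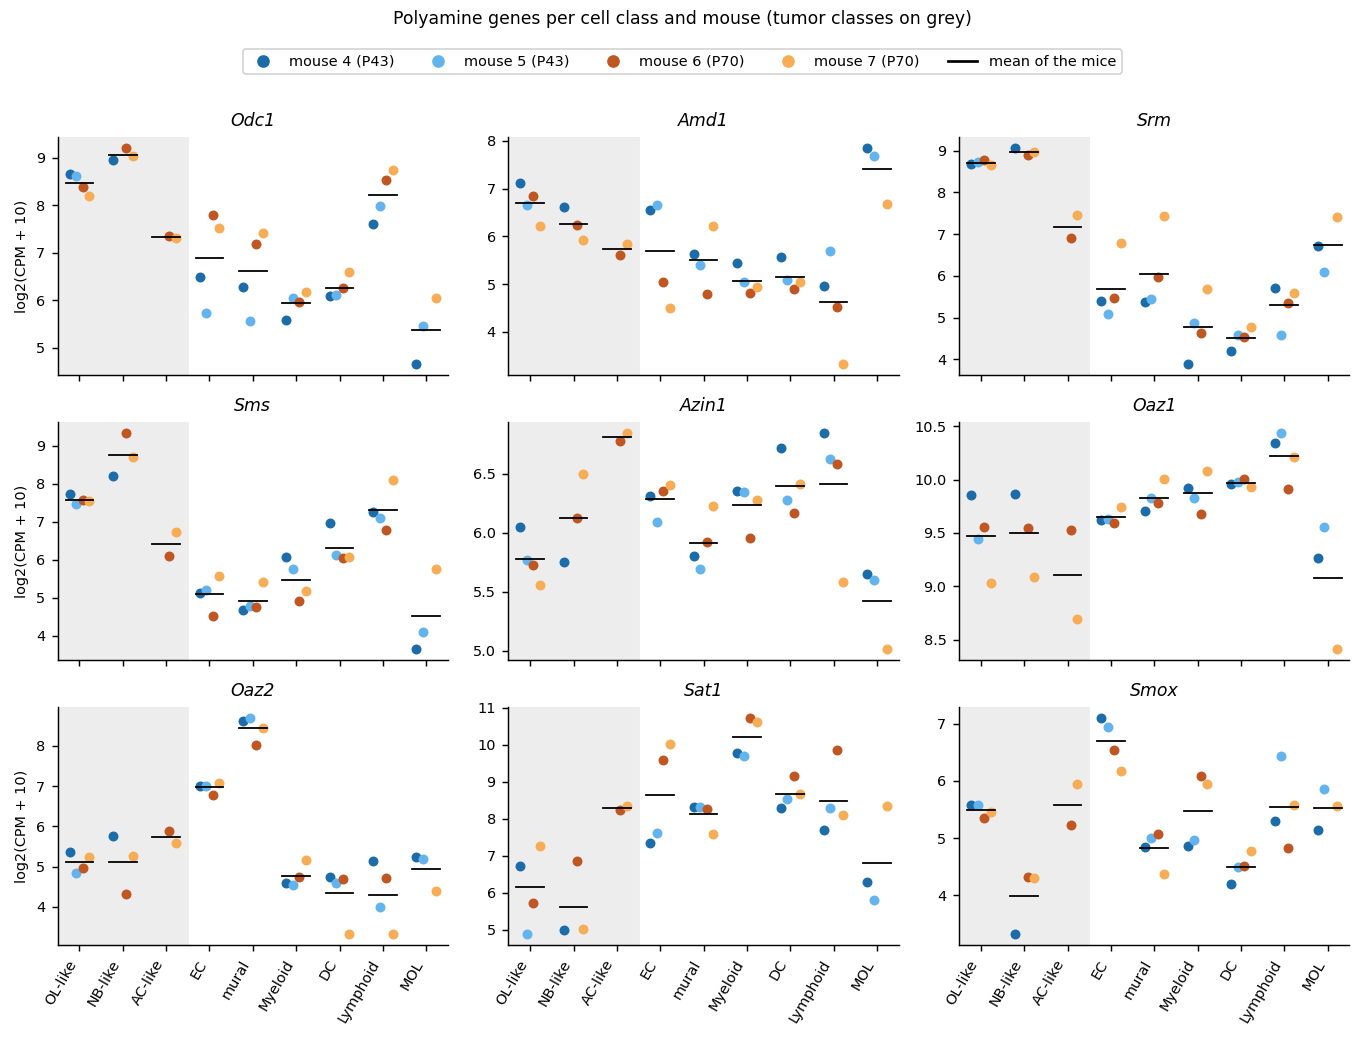
Level of each polyamine gene as log2(CPM + 10) on the vertical axis, per cell class on the horizontal axis and with 1 point per mouse (at least 20 cells) and a line for the mean of the mice; tumor classes stand on grey and each panel has its own vertical range. Odc1, Srm and Sms were high in OL-like and NB-like cells, Oaz2 in mural cells, Sat1 in Myeloid cells and Smox in EC; the NB-like points of mouse 4 are of cells without that class's markers.

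The TME is a mixture whose makeup differed between mice, so the largest tumor class was compared with each normal class. Srm was the one member called higher in OL-like cells than in all 6 normal classes, with log2 fold changes from 2.03 (MOL) to 4.43 (DC). OL-like cells held 400, 417, 427 and 394 CPM of Srm in mice 4 to 7, whereas DC held 8.28, 14.0, 13.2 and 17.3 CPM and Myeloid cells 4.78, 19.3, 14.7 and 41.5 CPM. The 4 OL-like values were thus close to each other and far above those of both immune classes. The immune values came from 2, 10, 39 and 3 Srm UMIs in DC and 1, 10, 67 and 16 in Myeloid cells. In mouse 4 both lie under the level that 3 UMIs give there (12.4 and 14.3 CPM), so the size of these folds is uncertain. DC of mouse 5 also held 2675 CPM of neutrophil markers, above their 1966 CPM of DC markers. MOL, the mature cells of the oligodendrocyte lineage, held 95.7, 57.8 and 160 CPM in mice 4, 5 and 7.

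Odc1 was called higher in OL-like cells than in 5 of 6 classes, with log2 fold changes from 1.75 (EC) to 3.42 (MOL). It stood at 393, 382, 324 and 284 CPM in OL-like cells of mice 4 to 7 and at 15.1, 33.7 and 55.7 CPM in MOL of mice 4, 5 and 7 (3.42 ± 0.42, n = 3 mice, edgeR adjusted p = 6.8e-04). Only 6, 14 and 15 Odc1 UMIs were counted in these MOL, and the highest value came from the mouse whose MOL held reporter. In EC Odc1 was at 79.8, 43.4, 213 and 174 CPM in mice 4 to 7. The excess of OL-like cells over EC was thus smaller in both P70 mice than in both P43 mice. In Myeloid cells Odc1 was at 38.2, 56.0, 52.0 and 62.3 CPM and in DC at 57.9, 59.0, 66.6 and 86.6 CPM. The exception was the Lymphoid class, at 185, 242, 359 and 417 CPM, which overlapped the OL-like range (log2 fold change 0.32, edgeR adjusted p = 0.41). Within it, the T and natural killer cell cluster held 199, 250, 456 and 432 CPM and the B cell cluster 146, 129 and 146 CPM in mice 4 to 6. The Lymphoid class of mouse 7 had 23 cells and 11 Odc1 UMIs, and 3 UMIs give 114 CPM there.

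Sms followed the same outline. OL-like cells held 203, 168, 182 and 178 CPM against 24.9, 26.5, 12.8 and 37.4 CPM in EC and 15.8, 17.7, 16.8 and 32.4 CPM in mural cells. The fold change was largest against MOL (3.63 ± 0.59, edgeR adjusted p = 0.0022), where 1, 3 and 12 UMIs were counted, and against Lymphoid cells it was 0.39 (edgeR adjusted p = 0.34). DC lay between, at 116, 60.4, 56.4 and 57.8 CPM. Oligodendrocyte progenitors gave no test, with 22 cells in mouse 5 and 115 in mouse 7 (264 and 321 CPM of reporter). Those of mouse 5 held 92.6 CPM of Odc1, 99.7 CPM of Srm and 78.4 CPM of Sms, on 13, 14 and 11 UMIs. At P70 the means of mouse 6 (1 cell) and mouse 7 were 70.5, 108 and 174 CPM. The cell of mouse 6, with 0 Odc1, 1 Srm and 2 Sms UMIs, weighs as much in them as the 115 cells of mouse 7. These means thus do not give the level of mouse 7 and are not compared with OL-like cells.

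Amd1 differed from the other synthesis genes in that MOL exceeded OL-like cells. MOL held 222, 195 and 92.8 CPM in mice 4, 5 and 7, and OL-like cells of the same mice 129, 91.1 and 64.0 CPM, so MOL was higher within each mouse (-0.83 ± 0.25, edgeR adjusted p = 0.028). Without mouse 4 or without mouse 5 this call was lost (edgeR adjusted p = 0.13 and 0.24). Against the other 5 classes Amd1 was called higher in OL-like cells. The call against EC was narrow (0.94 ± 0.35, edgeR adjusted p = 0.042). OL-like cells held 129, 91.1, 105 and 64.0 CPM in mice 4 to 7 and EC 83.9, 90.3, 23.0 and 12.5 CPM. The EC values of mice 6 and 7 came from 27 and 1 UMIs, and those of mouse 5 were nearly equal in both classes.

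Among the regulators, Oaz2 was highest in vessel cells. Mural cells held 380, 404, 251 and 335 CPM and EC 119, 119, 101 and 125 CPM, against 31.5, 18.7, 21.3 and 27.9 CPM in OL-like cells. The log2 fold changes of OL-like cells were -3.76 ± 0.25 against mural cells (edgeR adjusted p = 6.8e-06) and -2.25 ± 0.21 against EC (edgeR adjusted p = 3.0e-05), and none of the other 4 comparisons passed. Oaz1 was called lower in OL-like than in Myeloid, DC and Lymphoid cells, by log2 differences of -0.68, -1.04 and -0.72. Azin1 was called lower than in EC, Myeloid, DC and Lymphoid cells, with log2 fold changes from -1.24 (DC) to -0.54 (EC), the latter lost without any 1 of the mice.

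Sat1 was lower in OL-like cells than in 5 of 6 classes. Myeloid cells, which comprise microglia and macrophages, held 874, 816, 1685 and 1557 CPM, against 95.7, 19.3, 42.3 and 142 CPM in OL-like cells (-4.61 ± 0.44, edgeR adjusted p = 1.1e-05). MOL, at 68.0, 45.8 and 312 CPM in mice 4, 5 and 7, were not separated from OL-like cells (-0.65, edgeR adjusted p = 0.19). They were lower than OL-like cells in mouse 4 and higher in mice 5 and 7, and the MOL of mouse 7 held 668 CPM of reporter. Smox was highest in EC, at 127, 113, 82.7 and 62.3 CPM, against 37.5, 38.0, 30.8 and 33.8 CPM in OL-like cells (-1.50 ± 0.20, edgeR adjusted p = 2.5e-04). It was called higher in OL-like than in mural cells (0.82, edgeR adjusted p = 0.043) and DC (0.89, edgeR adjusted p = 0.036). Only 12, 21, 24 and 1 Smox UMIs were counted in mural cells and 2, 9, 38 and 3 in DC of mice 4 to 7. Mural cells of mouse 7 and DC of mouse 4 lie under the level that 3 UMIs give there.

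Over all genes, 59.9% were called between OL-like cells and EC, 51.2% against mural cells, 62.3% against Myeloid cells, 58.7% against DC, 48.8% against Lymphoid cells and 36.4% against MOL. Of the 9 members, 8, 7, 7, 8, 5 and 4 were called in these comparisons. In Lymphoid cells Azin1 and Oaz1 lost their calls, and the count fell to 3, with DESeq2 or without mouse 4, 5 or 6. All 6 comparisons share the OL-like sums.

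**Figure D2:**
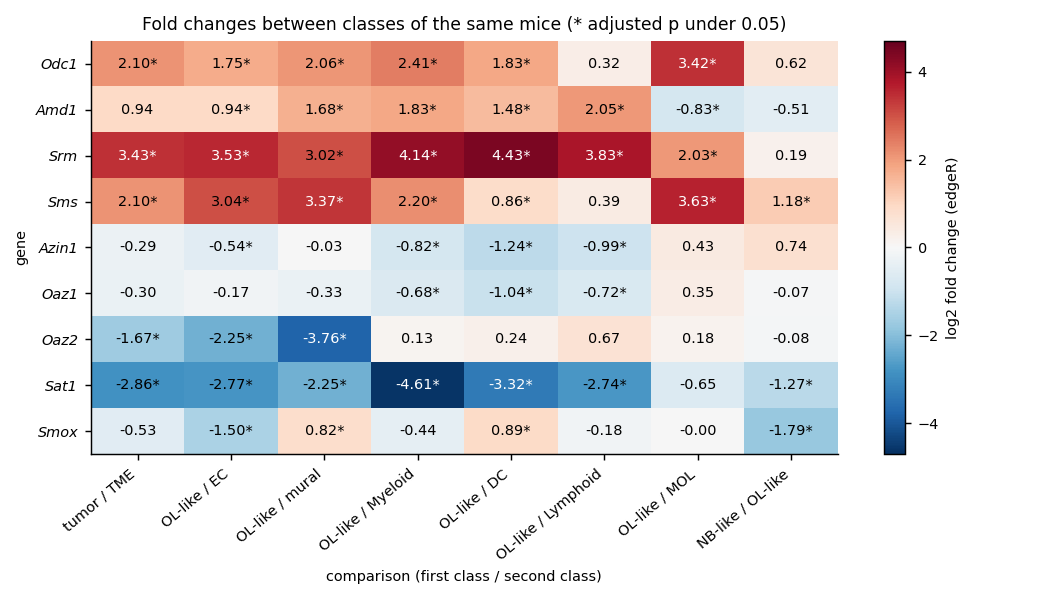
Log2 fold changes of the 9 genes (rows) in 8 comparisons of classes within mice (columns, first class over second class), by colour and number, with an asterisk where the edgeR adjusted p was under 0.05. Srm was marked higher against all 6 normal classes tested, from 2.03 to 4.43, and Sat1 lower against 5 of them.

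Shares of cells with a UMI are given as a description. No class here is known to lack Odc1 or Srm, so the share that free RNA gives was not measured. After each cell was thinned to 2000 UMIs, 50.3%, 55.1%, 43.6% and 40.9% of OL-like cells of mice 4 to 7 had at least 1 Odc1 UMI of the 706, 207, 298 and 1856 cells deep enough (exact 95% intervals 46.5 to 54.0, 48.0 to 62.0, 37.9 to 49.5 and 38.7 to 43.2%, covering counting error only). In Myeloid cells, which lay near the low end for this gene, the shares were 2.86%, 1.59%, 8.85% and 14.6% of 35, 63, 768 and 89 cells. For Srm the shares were 53.8%, 56.5%, 53.7% and 49.1% of OL-like and 0%, 1.59%, 2.47% and 4.49% of Myeloid cells. Without thinning, 46.5%, 90.6%, 76.1% and 88.2% of OL-like cells had an Odc1 UMI, at median depths of 1508, 23942, 6109 and 12410.5 UMIs, and 11.1%, 31.8%, 21.7% and 13.8% of Myeloid cells, at 4068, 7665.5, 5364 and 2321 UMIs. The unthinned order of the mice thus differed from the thinned one.

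Among tumor classes, NB-like cells of mice 6 and 7 carried more Sms than OL-like cells of the same mice, and those of mouse 7 less Smox. Sms reached 640 and 408 CPM in the NB-like class of mice 6 and 7 against 182 and 178 CPM in the OL-like class, and Smox 9.99 and 9.71 against 30.8 and 33.8 CPM, with only 2 Smox UMIs in the 25 cells of mouse 6. In both mice Sms was thus higher. The Smox value of mouse 6 lies under the 15.0 CPM that 3 UMIs give there, so a lower Smox level rests on mouse 7. The cells of mouse 4 placed in this class, which lacked its markers and held 1584 CPM of MOL markers, had 286 CPM of Sms on 13 UMIs, 22.0 CPM of Sat1 on 1 UMI and no Smox UMI. For Sat1 and Smox these lie under the 66.0 CPM that 3 UMIs give there, so no difference from OL-like cells was detectable in mouse 4.

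With all 3 mice, 3 of 9 members were called, against 19.0% of all genes, namely Sms (1.18 ± 0.29, edgeR adjusted p = 5.8e-04), Smox (-1.79 ± 0.46, edgeR adjusted p = 9.7e-04) and Sat1 (-1.27 ± 0.38, edgeR adjusted p = 0.0071). Without mouse 4, leaving 2 mice, these 3 passed with 1.39, -1.82 and -1.38, and Odc1 (0.77 ± 0.24, edgeR adjusted p = 0.0072) and Azin1 (0.84 ± 0.31, edgeR adjusted p = 0.030) passed as well, 5 in all. Without mouse 7, which gave 598 of the 659 cells, edgeR called 0 members and Sat1 turned to 0.20, and DESeq2 on all 3 mice called 1, Sms. In mice 6 and 7 the NB-like class held 105 and 22.1 CPM of Sat1 against 42.3 and 142 CPM, higher in the one mouse and lower in the other. Odc1 was at 585 and 519 CPM against 324 and 284 CPM, higher in both, and with mouse 4 included it missed the threshold (0.62 ± 0.28, edgeR adjusted p = 0.11).

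NB-like cells of mouse 7 were cycling more often, at 65.9% against 43.3% of OL-like cells. AC-like cells occurred in 2 mice and gave no test. They held 154 and 148 CPM of Odc1 in mice 6 and 7, where OL-like cells held 324 and 284 CPM. Srm was likewise lower, at 109 and 167 against 427 and 394 CPM, whereas Sat1 was higher, at 289 and 312 against 42.3 and 142 CPM. Only 5.17% and 1.69% of these AC-like cells were cycling. In mouse 6 the class also held 4559 CPM of the 8 mural markers, above its 1885 CPM of AC-like markers, against 138 CPM of mural markers in mouse 7 and 19.7 CPM in OL-like cells of mouse 6. Mural cells of mouse 6 held 135 CPM of Odc1, 52.4 CPM of Srm and 296 CPM of Sat1, and the part of mural RNA in the AC-like values of that mouse was not tested.

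**Figure D3:**
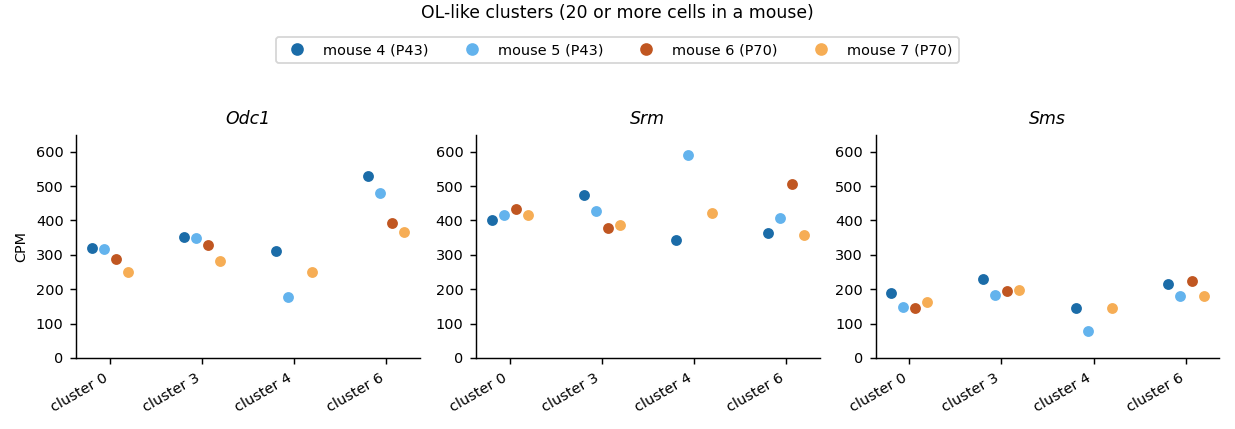
CPM of Odc1, Srm and Sms on the vertical axis in the 4 OL-like clusters on the horizontal axis, with 1 point per mouse where the cluster held at least 20 cells. Odc1 was highest in cluster 6 in all 4 mice, from 365 to 528 CPM.

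Within OL-like cells Odc1 was highest in 1 of the clusters. Cluster 6 held 528, 481, 393 and 365 CPM in mice 4 to 7, cluster 3 held 351, 350, 329 and 281 CPM and cluster 0 held 319, 318, 287 and 250 CPM. The order cluster 6, cluster 3, cluster 0 was thus the same in every mouse, with no test, as the cells were clustered on the same libraries. Cells of both cluster 6 (71.0% to 81.6%) and cluster 3 (72.5% to 87.6%) were mostly cycling, that is, had at least 2 of 8 cell cycle genes after thinning, against 4.69% to 11.2% of cluster 0. Srm did not follow this order, at 363, 407, 505 and 358 CPM in cluster 6 and 400, 415, 434 and 415 CPM in cluster 0.

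Cycling was also compared directly, between OL-like cells with at least 2 cell cycle genes and those with none. Odc1 was at 392, 537, 260 and 298 CPM in cycling cells and 359, 297, 290 and 244 CPM in the others, higher in 3 of 4 mice (0.24 ± 0.10, edgeR adjusted p = 0.0996). Srm was at 422, 372, 384 and 322 against 454, 462, 445 and 397 CPM, lower in all 4 mice (-0.25 ± 0.09, edgeR adjusted p = 0.054). Of the 8 members tested by edgeR, 0 were called, 3 had an unadjusted p under 0.05, and DESeq2 called 0, while 10.3% of all genes were called. When OL-like cells of each mouse were split by reporter UMIs and equal-sized groups with the fewest and the most (51 to 464 cells each per mouse) compared, 0 of the 7 members tested by edgeR were called, 1 (Sat1, -0.61 ± 0.22) had an unadjusted p under 0.05, and DESeq2 called 0. Of all genes 1.78% were called in that comparison. Odc1 was at 389, 441, 304 and 318 CPM in reporter-high and 369, 451, 270 and 234 CPM in reporter-low cells of mice 4 to 7. Within mice it was thus higher in 3 of 4 and lower in mouse 5 (0.20 ± 0.13, edgeR adjusted p = 0.47). Cells were thinned to 2000 UMIs for this split, which left few reporter UMIs per cell in mouse 4. There the 176 reporter-low cells held 0 reporter UMIs, and the 176 reporter-high cells 525 of luciferase and 177 of human MYCN. Reporter was at 0, 392, 426 and 222 CPM in reporter-low and 1994, 8216, 6182 and 4177 CPM in reporter-high cells of mice 4 to 7. The groups were formed from these same UMIs, so how far they differ in transgene level beyond counting error was not tested.

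With age, OL-like cells gave no call for any gene in edgeR. Odc1 was at 393 and 382 CPM at P43 and 324 and 284 CPM at P70 (-0.40 ± 0.19, edgeR unadjusted p = 0.088). Overlap of the ages is not read as a result in any class, since the share of all genes without overlap was not counted. Srm was nearly level, with means of 409 ± 12.4 CPM at P43 and 410.4 ± 22.9 CPM at P70 (SD, n = 2 mice each). Of the 9 members edgeR called 0, 0 had an unadjusted p under 0.05 and DESeq2 called 0, while of all 11545 genes 0.00% were called by edgeR, 513 had an unadjusted p under 0.05 and DESeq2 called 39. In simulated counts with 1 dispersion for all genes (0.133), the edgeR test recovered 0% of 2-fold and 21.0% of 4-fold changes. At that spread, 2-fold changes were not detectable and most 4-fold changes would have been missed. The SE of the members ran from 0.18 (Srm) to 0.84 (Sat1), so these shares need not hold for each gene. The OL-like cells of mouse 4 lay largely in shallow cluster 4 (891 of 1753 cells) and those of mouse 7 in cluster 0 (872 of 1872).

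Vessel cells differed with age. In EC, Odc1 was at 79.8 and 43.4 CPM at P43 and 213 and 174 CPM at P70, a 3.63-fold rise (log2 fold change 1.86 ± 0.29, n = 2 against 2 mice, edgeR adjusted p = 0.0011). Sat1 rose 5.26-fold, from 152 and 184 CPM to 766 and 1021 CPM (2.40 ± 0.21, edgeR adjusted p = 2.0e-05). Amd1 fell 3.70-fold, from 83.9 and 90.3 CPM to 23.0 and 12.5 CPM (-1.89 ± 0.31, edgeR adjusted p = 0.0015). No other member was called in EC. Thus, among the called members, a gene of synthesis and a gene of turnover rose together while another gene of synthesis fell. Of 9 members 3 were called, against 9.94% of all genes tested.

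The EC values of mouse 7 came from 37 cells, with 14 Odc1, 82 Sat1 and 1 Amd1 UMIs. Without mouse 7, Odc1 and Sat1 were still called, and Amd1 lost its call without mouse 6 (edgeR adjusted p = 0.063) and with DESeq2 (adjusted p = 0.091). Reporter in EC was 38.3, 28.6, 37.5 and 324 CPM in mice 4 to 7. The summed level of the 8 Myeloid markers in EC was 4.14 and 2.04 CPM at P43 and 149 and 0 CPM at P70. Summed EC markers were lower at P70 (11390 and 9852 against 17660 and 17900 CPM), and so were hemoglobin RNAs (42.6 and 0 against 2496 and 2150 CPM). The part of these in the age difference was not tested. Of EC, 0%, 0.504% and 6.80% were cycling in mice 4, 5 and 6, and among cells without a UMI of a cycle gene Odc1 differed by 2.01 and Sat1 by 2.58.

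Mural cells showed a rise of Odc1 from 67.8 and 37.5 CPM to 135 and 162 CPM (1.67 ± 0.29, edgeR adjusted p = 0.0012) and of Srm from 31.5 and 33.3 CPM to 52.4 and 162 CPM (1.25 ± 0.39, edgeR adjusted p = 0.042). Sat1 was at 309 and 309 CPM there against 296 and 184 CPM and was not called. Of 9 members 2 were called, against 18.5% of all genes. Both calls were lost without mouse 6 and without mouse 7, and that of Srm also with DESeq2 or without mouse 4. Only 15 Odc1 and 15 Srm UMIs were counted in the 36 mural cells of mouse 7. Reporter in mural cells was 53.6 and 68.8 CPM at P43 and 140 and 184 CPM at P70. Summed mural markers were 30280 and 34300 CPM at P43 and 23770 and 19030 CPM at P70, and the 8 Myeloid markers 7.89 and 3.13 against 124 and 0 CPM. The part of these in the age difference was not tested. Of mural cells, 1.27%, 0.444% and 11.1% were cycling in mice 4, 5 and 6, and among cells without a UMI of a cycle gene Odc1 differed by 1.42 and Srm by 1.16, both called by edgeR.

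**Figure D4:**
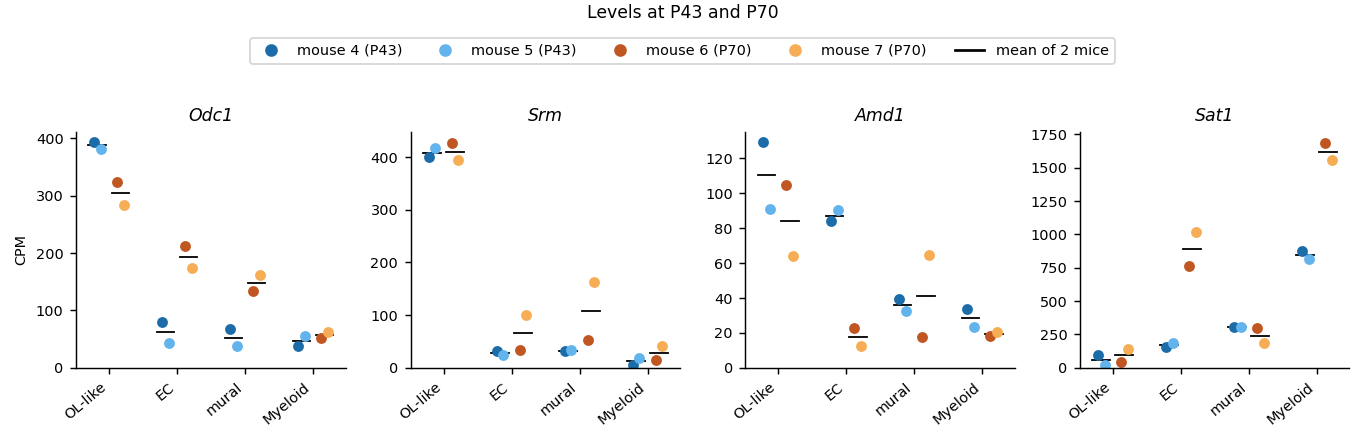
CPM of Odc1, Srm, Amd1 and Sat1 (vertical axes, each starting at 0) in OL-like cells, EC, mural cells and Myeloid cells, with 1 point per mouse, P43 on the left and P70 on the right of each pair, and a line for the mean of 2 mice. In EC, Odc1 and Sat1 lay higher and Amd1 lower at P70.

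Whether the change with age differed between EC and OL-like cells was tested by an interaction term. For Odc1 the change in EC exceeded that in OL-like cells by a log2 value of 2.15 ± 0.42 (edgeR adjusted p = 0.014), the 1 of 9 members called, against 0.922% of all genes. The value was 1.67 to 2.27 when mouse 5, 6 or 7 was left out, but without each of these the adjusted p of Odc1 was over the threshold (0.16, 0.51 and 0.23). Without mouse 5, Sat1 was called in its place (2.84, edgeR adjusted p = 1.0e-04).

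In immune cells no member was called. In Myeloid cells Sat1 was at 874 and 816 CPM at P43 and 1685 and 1557 CPM at P70 (1.02 ± 0.20, edgeR adjusted p = 0.10), and Smox at 19.1 and 21.2 against 58.1 and 51.9 CPM (1.52 ± 0.37, edgeR adjusted p = 0.17). Whether Sat1 and Smox passed depended on which mice were kept, and leaving out mouse 6 or 7 leaves 1 mouse at P70. Of the 7 members tested edgeR called 0, 3 had an unadjusted p under 0.05 and DESeq2 called 0, against 0.324% of all genes. In DC, 0 of 6 tested members were called, 0 had an unadjusted p under 0.05 and DESeq2 called 0, against 3.36%. In Lymphoid cells 0 of 7 were called by edgeR and by DESeq2 and 2 had an unadjusted p under 0.05, against 0.420%. Sat1 there was at 197, 303, 911 and 265 CPM in mice 4 to 7, and the B cell cluster of mouse 6 alone held 2336 CPM. The 8 Myeloid markers summed to 260, 72.9, 885 and 75.8 CPM in the Lymphoid class of these mice, highest in mouse 6 too, and their part in the Sat1 value was not tested.

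The other genes of the pathway, a list of 28 that holds suppliers of ornithine, relatives of the members, acetylation and oxidation enzymes, transporters, hypusination and methionine salvage, were compared between tumor and TME cells. Of the 22 that passed the filter, 8 were called higher and 2 lower in tumor cells, with a median log2 fold change of 0.42, where 22.8% and 24.5% of all genes were called higher and lower. The counts were 5 and 1 without mouse 4, 4 and 2 without mouse 5, and 0 and 0 by edgeR with tumor cells called one by one. Hypusination uses spermidine to modify the translation factor eIF5A, and of its 4 listed genes 3 were called higher, while Dhps, the first enzyme of the modification, was not (0.12 ± 0.17, edgeR adjusted p = 0.60). Eif5a was at 1658, 1420, 1485 and 1656 CPM in tumor cells of mice 4 to 7 and at 361, 358, 453 and 558 CPM in TME cells (1.89 ± 0.27, edgeR adjusted p = 0.0039). Dohh, the hydroxylase that completes the modification, was at 122, 118, 95.5 and 66.8 against 44.8, 34.7, 31.1 and 38.3 CPM (1.44 ± 0.25, edgeR adjusted p = 0.0067), and Eif5a2 differed by 1.29 ± 0.27 (edgeR adjusted p = 0.013).

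Mtap recycles the methylthioadenosine left over by spermidine and spermine synthesis. It was at 131, 102, 111 and 138 CPM against 49.9, 45.7, 21.6 and 46.5 CPM (1.64 ± 0.18, edgeR adjusted p = 0.0022). Ahcy, which clears S-adenosylhomocysteine, was at 17.0, 17.9, 14.2 and 13.2 against 2.94, 3.98, 1.59 and 5.47 CPM (2.33 ± 0.37, edgeR adjusted p = 0.0054). Oaz3 was called higher (1.81 ± 0.51, edgeR adjusted p = 0.031) on 3, 10, 4 and 1 UMIs in TME cells and lost its call without any 1 mouse. Slc3a2, the heavy chain of amino acid transporters, was lower in tumor cells, at 61.8, 78.8, 115 and 120 against 327, 333, 357 and 226 CPM (-1.73 ± 0.27, edgeR adjusted p = 0.0052). Paox, which oxidizes acetylated polyamines, was also lower (-1.72 ± 0.48, edgeR adjusted p = 0.031), but not when mouse 4, 6 or 7 was left out.

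**Figure D5:**
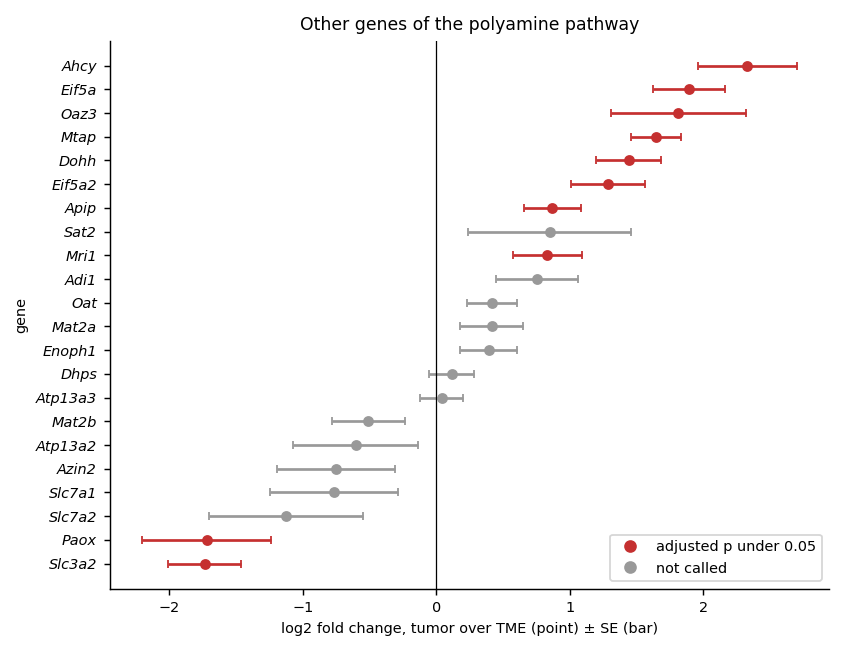
Log2 fold change of tumor over TME cells (horizontal axis, point, with SE as bar) for the 22 other pathway genes tested (vertical axis), red where the edgeR adjusted p was under 0.05. Ahcy, Eif5a and Oaz3 lay furthest on the tumor side and Slc3a2 and Paox on the TME side.

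Across 36 sums of a class in a mouse with at least 20 cells, the 5 genes whose log2(CPM + 10) correlated most with that of Odc1 were Bzw2 (Pearson r = 0.863), Ddx27 (0.856), Ppa1 (0.840), Serbp1 (0.836) and Srp72 (0.827), of 9643 genes compared. Among the members the values were 0.689 for Srm, 0.676 for Sms, -0.381 for Sat1, -0.050 for Amd1, -0.070 for Azin1, -0.064 for Oaz1, -0.0089 for Oaz2 and 0.037 for Smox, and for luciferase and human MYCN 0.736 and 0.689. These values are descriptions, since sums of a mouse share a library and those of a class share their cells' type.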

How the data were processed

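Single-cell RNA of 4 tumors was analysed. The deposited values are raw UMI counts per gene and cell barcode, which the authors made with Cell Ranger 6.0.2 against mm10 extended by human MYCN and luciferase, without normalization or cell filters. Members and lists were chosen with earlier results of these data known. Cells with at least 200 genes, no more than 40000 UMIs and a mitochondrial share under 25% were integrated and clustered with Seurat 5.3.0 (2000 variable genes without polyamine genes, 30 components, resolution 0.5, doublets limited only by the UMI maximum). A tumor cluster counted as tumor in mice where its cells reached 500 CPM of reporter. A name needed at least 3 markers raised 2-fold. UMIs were summed per class and mouse (at least 20 cells, at least 3 mice) and tested with edgeR 4.0.16 (TMM, filterByExpr, quasi-likelihood, Benjamini-Hochberg, limit 0.05), with mouse as block within mice. Each mouse is 1 library; no batch is given in the sources used here, so age and library preparation cannot be told apart. Named besides the 9 members were pathway genes called between tumor and TME cells, at most the 8 with the largest change, and the 5 genes most like Odc1 among those reaching 50 CPM. Alternatives included DESeq2 1.42.0, RLE scaling, other filters, clusterings and cell subsets, and leaving out each mouse. Tested on simulated data, edgeR recovered 75.8% of 4-fold and 4% of 2-fold changes between tumor and TME cells, and 100% and 55% with age in EC. The simulations changed few genes and gave all genes 1 dispersion (0.18 for tumor and TME cells). In the data 47.3% of genes were called between tumor and TME cells, which loosens the adjusted limit, so the simulated shares need not hold there. Gene positions came from GENCODE vM21.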

Additional observations from a re-analysis of the deposited data

Results flagged for a closer look

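The change of Odc1 from P43 to P70 differed between EC and OL-like cells, by 2.15 on the log2 scale (EC minus OL-like), in a test of the difference itself with 2 mice at each age. The change was 1.86 in EC and -0.40 in OL-like cells, and leaving out mouse 5, 6 or 7 ended the call. Groups of 2 mice are too small for a search for single samples that stand apart.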

How the results depend on the processing

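Called members changed by over 1.5 times in few settings. Between tumor and TME cells 0 were called when cells were called one by one (5 by clusters, 6 without mouse as block), with all 5 directions kept. Calling cells one by one put OL-like cells without a reporter UMI on the TME side. DESeq2 called 3 for OL-like against Lymphoid cells, 1 for NB-like against OL-like cells and 1 with age in mural cells. Leaving out each mouse gave 3 to 5 for Lymphoid cells and 0 to 5 for NB-like cells, where Sat1 turned to 0.20 without mouse 7. With age it gave 0 to 2 in mural, 0 to 2 in Myeloid and 0 to 1 in Lymphoid cells. It gave 0 to 1 for the difference of the age change between EC and OL-like cells, and 0 to 1 for cycling cells. The cause was not tested.

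Mouse was the block in all comparisons within mice, since both classes came from 1 animal. The ages share replicate numbers but no animal, and no block was used between them. Removal of cluster 4 from OL-like cells, of cells with cycle genes from EC and mural cells, and other assignments of tumor clusters were chosen after seeing the data. Of 1096 single values under alternatives, 1005 kept their side of the threshold and, where called, their direction, 67 lost a call, 23 gained one and 1 reversed; among those kept, 51 changed sign while called in neither. For 5, DESeq2 gave no adjusted p. The setting meant to leave clusters with reporter over the limit out of the TME gave the same counts as the main one. Both had 2815 genes higher and 3023 lower of 12331, although the MOL of mouse 7 held 668 CPM of reporter. That setting thus tested nothing, and its values are among those kept. Of the shares of cells, 20 stayed within their interval and 46 moved out of it when the thinning changed. Few cells limit mouse 7 EC and mural values.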

Other observations

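Cluster 5, whose cells passed the reporter limit in mice 6 and 7 (1794 and 1037 CPM) and not in mice 4 and 5 (251 and 191 CPM), was given no class name. Its Odc1 level was 49.9 and 40.2 CPM in mice 4 and 5 and 276 and 131 CPM in mice 6 and 7, and Srm was at 101, 50.3, 213 and 291 CPM. No test was made, since these cells of mice 4 and 5 were in no comparison. In the B cell cluster of the Lymphoid class, Sat1 stood at 388, 548 and 2336 CPM in mice 4, 5 and 6, on 24, 17 and 401 UMIs, against 130, 287 and 259 CPM in the T and natural killer cell cluster. In the whole Lymphoid class, Myeloid markers summed to 260, 72.9 and 885 CPM and neutrophil markers to 0, 11.8 and 245 CPM in mice 4, 5 and 6, and Myeloid cells of mouse 6 held 1685 CPM of Sat1; the part of these cells in the value was not tested.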
